A study of Mus musculus with 2 samples.

Results

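The genes described here are 10 genes that mark lipid-associated macrophages: Trem2, Apoe, Gpnmb, Spp1, Fabp5, Lpl, Cd36, Cd9, Msr1 and Lgals3. They were taken by symbol from the 33696 genes listed for both libraries, and each symbol matched a single identifier. The data are single-cell UMI counts (a UMI is a tag for 1 captured RNA molecule) from ulcerated mouse skin, in a model of ulcerative dermatitis in which tape stripping stands for scratching. Of the 2 libraries, the first came from a sample labelled wild type and the second from one labelled as overexpressing Has2, a hyaluronan synthase, in the whole body. Both samples had 15 days of stripping at 40 to 50 strips a day. The promoter that drives the transgene, the age and the sex of the mice are not given in the sources used here. The label on treatment begins in mid-sentence, so an earlier step common to both samples may not be named in it. The labels also list the molecule as total RNA for wild type and as polyA RNA for the other sample, under a single capture protocol, and they number the samples as replicates 1 and 2 although their genotypes differ.

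Lipid-associated macrophages are macrophages that have taken up lipid from dying cells, lipoproteins or myelin, and they are known from obese fat tissue, atherosclerotic plaques, injured brain and healing wounds. TREM2 is their lipid-sensing receptor and signals through the adaptor TYROBP. The scavenger receptors CD36 and MSR1 bring in modified lipoproteins and fatty acids, lipoprotein lipase (Lpl) releases fatty acids from triglycerides, FABP5 carries fatty acids inside the cell, and apolipoprotein E carries cholesterol out. GPNMB (a glycoprotein of lysosomes and the cell surface), osteopontin (Spp1), the tetraspanin CD9 and the lectin galectin-3 (Lgals3) are widely used markers of the state, although other cell types make several of them.

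The wild-type library held 143875454 UMIs in 16999 barcodes and the library labelled Has2-transgenic 134917708 UMIs in 14622 barcodes; 15682 and 13563 cells were kept. The libraries shared 79 barcodes, 0.465% and 0.540% of their barcodes. Has2 itself was at 73.2 CPM (UMIs of a gene scaled to a common total per class or library) in wild type and 85.8 CPM in the other over all kept cells, a ratio of 1.17, and in fibroblast-like cells, which held 97.2% and 82.0% of its UMIs, at 187 and 145 CPM, a ratio of 0.777. At full depth the share of fibroblast-like cells with a Has2 UMI was 46.9% and 62.0%, but their median depths were 15983 and 24535 UMIs. No order is read from these shares, since a deeper cell more often shows a UMI. Has2 in macrophage or monocyte-like cells had a ratio of 11 (5.02 to 28.4) from 7 and 63 UMIs, and in neutrophil-like cells a ratio of 2.94 (1.77 to 4.98) from 26 and 44 UMIs. Keratinocyte-like cells, 21 and 183 of them, held 67 and 1462 of the 9308 and 10476 Has2 UMIs, at 172 and 328 CPM. The part of this class, with its different number of cells, in the Has2 ratio over all cells was not tested. The Has2 levels ran in the direction of the label in macrophage or monocyte-like and neutrophil-like cells and over all cells. They ran against it in fibroblast-like cells. Tissue was dissociated with enzymes and captured with a 10x Genomics 5′ kit, per the labels' protocols. With 1 library per genotype, nothing below has a replicate check or a test, and genotype, animal and preparation, with the difference in the molecule label, cannot be told apart. Every interval (95%) covers counting error alone, and each ratio divides the level in the library labelled Has2-transgenic by that in wild type.

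To show the DNA next to the starts of the genes on which the results turn, the 250 bases before the outermost RefSeq start of 4 genes are printed, 5′ to 3′ on the gene's strand, from RefSeq on build GRCm38.p6. The deposited counts were made on GRCm39, so these coordinates belong to the sequence table and not to the counts. Capitals mark matches, on either strand, to any of the motifs searched. These were GAGGAA, the core bound by PU.1-type factors of myeloid cells, TGANTCA, a loose AP-1-type pattern, CACGTG, an E-box, and GGGCGG, a GC box. In TGANTCA, N is any base, so not every match is an AP-1 site. Trem2 lies at chr17:48346151-48346400 on the plus strand, Apoe at chr7:19699189-19699438 on the minus strand, Spp1 at chr5:104434861-104435110 on the plus strand and Cd9 at chr6:125494761-125495010 on the minus strand.
Trem2: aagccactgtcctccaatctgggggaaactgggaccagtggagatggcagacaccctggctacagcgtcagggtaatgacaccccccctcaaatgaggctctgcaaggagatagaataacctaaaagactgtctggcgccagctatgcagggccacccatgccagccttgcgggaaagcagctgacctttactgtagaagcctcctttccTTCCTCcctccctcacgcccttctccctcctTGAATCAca
Apoe: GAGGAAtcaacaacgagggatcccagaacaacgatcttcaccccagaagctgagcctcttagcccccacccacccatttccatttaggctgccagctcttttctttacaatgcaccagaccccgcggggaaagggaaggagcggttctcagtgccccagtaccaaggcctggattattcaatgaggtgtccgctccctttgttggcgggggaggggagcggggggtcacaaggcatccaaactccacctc
Spp1: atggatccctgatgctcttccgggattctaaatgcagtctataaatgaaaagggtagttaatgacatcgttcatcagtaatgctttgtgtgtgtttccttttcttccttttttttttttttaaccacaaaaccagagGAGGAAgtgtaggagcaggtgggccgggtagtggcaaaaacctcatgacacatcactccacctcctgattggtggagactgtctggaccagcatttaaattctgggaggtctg
Cd9: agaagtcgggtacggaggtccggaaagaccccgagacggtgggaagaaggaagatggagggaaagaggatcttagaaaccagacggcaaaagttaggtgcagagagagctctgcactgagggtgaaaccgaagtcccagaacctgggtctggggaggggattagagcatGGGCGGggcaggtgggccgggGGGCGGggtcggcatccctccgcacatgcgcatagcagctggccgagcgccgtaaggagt
The table held 7 of the 10 genes. GAGGAA was in 3 of the 7 windows (Trem2, Apoe, Spp1) and in 23.1% of all 27025 windows of this length. TGANTCA was in 1 (Trem2; 6.85% of all), GGGCGG in 3 (Cd36, Cd9, Lgals3; 33.0% of all) and CACGTG in 0 (6.04% of all). A match is a stretch of letters and says nothing of binding.

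Macrophage or monocyte-like cells, gated on 21 markers that include none of the 10 genes, numbered 5212 in wild type and 4525 in the other, 33.2% and 33.4% of the kept cells. Their median depths were 8242 and 7111 UMIs. They held most UMIs of the lipid-sensing and scavenger receptors and of Apoe. Trem2 had 96.8% and 95.9% of its UMIs there, Msr1 95.9% and 95.3%, Cd36 88.8% and 79.0%, and Apoe 94.2% and 90.7%. By contrast Spp1 had 28.5% and 24.9% of its UMIs in these cells and Cd9 23.7% and 24.3%.

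**Figure D1:**
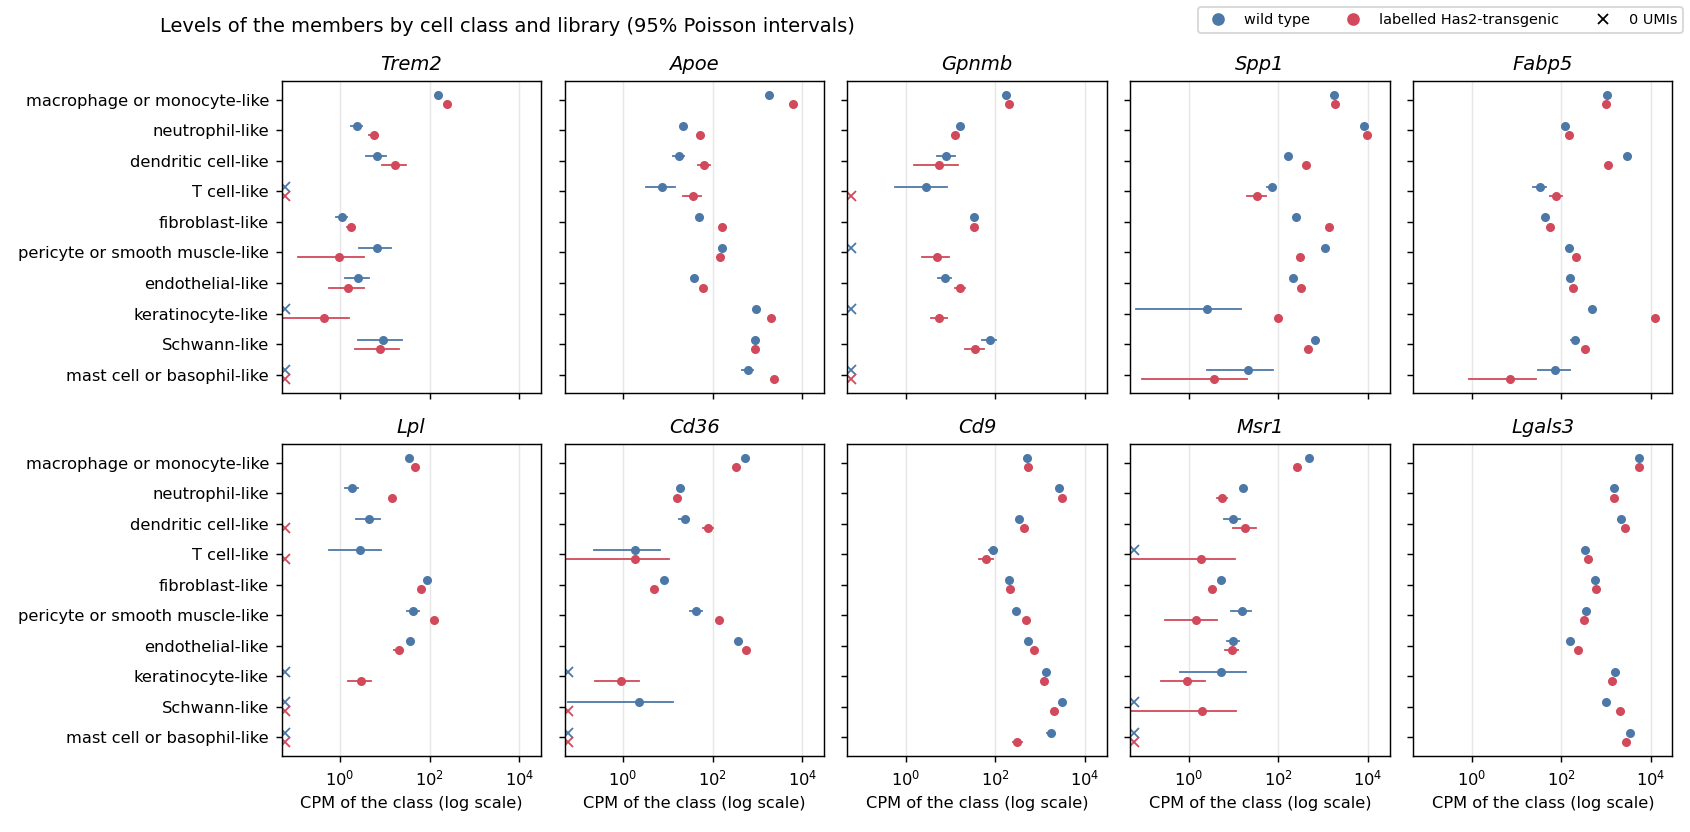
Level of each gene in CPM of the class (log axis) in 10 cell classes, for the wild-type library (blue) and the library labelled Has2-transgenic (red), with 95% Poisson intervals; crosses are classes with 0 UMIs. Trem2, Msr1 and Apoe are highest in macrophage or monocyte-like cells in both libraries, whereas Spp1 is highest in neutrophil-like cells in both.

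Between the libraries, 2 of the 10 genes were at least 1.5 times higher in the macrophage or monocyte class of that second library (Trem2 and Apoe), where 12.7% of all 11254 genes with at least 100 UMIs were. Another 2 were at least 1.5 times lower (Cd36 and Msr1), where 3.89% of all genes were. The remaining 6 lay between. The median log2 ratio of the 10 was 0.10, beside 0.06 over all genes. The genes thus did not move as a block, and the counts are too small to set the 10 apart from other genes.

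Among the receptors, Trem2 was at 155 CPM (151 to 159) in wild type and 239.5 CPM (235 to 245) in the second library, giving a ratio of 1.55 (1.5 to 1.59). A UMI of it was found in 52.6% and 60.8% of the cells at full depth, and in 22.9% and 32.3% of cells thinned to 2000 UMIs. The scavenger receptors ran the other way. Cd36 was at 538 CPM (532 to 545) and 333 CPM (327 to 338), a ratio of 0.618 (0.604 to 0.631), with a UMI in 52.9% and 39.9% of the cells (38.0% and 27.2% after thinning). Msr1 was at 492 CPM (485 to 498) and 262 CPM (257 to 267), a ratio of 0.532 (0.520 to 0.545), with a UMI in 81.3% and 65.1% of the cells (55.0% and 36.0% after thinning).

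Of the genes that carry or release lipid, Apoe had the ratio farthest from 1 of the 10 in these cells. It was at 1786 CPM (1773 to 1798) in wild type and 6264 CPM (6238 to 6289) in the second library, giving a ratio of 3.51 (3.48 to 3.54). The median cell held 7 and 18 Apoe UMIs. Fabp5 was at 1021 and 1001 CPM, with a ratio of 0.980 (0.967 to 0.994). Lpl was sparse, with 35.6 and 46.7 CPM from 1587 and 1714 UMIs and a ratio of 1.31 (1.23 to 1.41), yet the share of cells with an Lpl UMI was lower in the library with the higher level, 7.60% against 11.2% (3.29% against 4.84% after thinning to 2000 UMIs). Fewer cells thus held more Lpl each in the library labelled Has2-transgenic. The direction of the Lpl ratio depended on the processing: it was 0.713 by the mean of per-cell CPM, 0.763 and 0.830 in cells thinned to 1000 and 2000 UMIs, 0.899 without cells with 3 or more neutrophil markers, and 0.378 without cells that hold a UMI of Ctsk, Acp5 or Mmp9.

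The secreted and surface markers of the state were within 1.5-fold between the libraries over all cells of the class. Gpnmb was at 173 and 202 CPM, with a ratio of 1.17 (1.13 to 1.21), Spp1 at 1700.5 and 1816 CPM, with a ratio of 1.07 (1.06 to 1.08), Cd9 at 501 and 542 CPM, with a ratio of 1.08 (1.06 to 1.1), and Lgals3 at 5347 and 5438 CPM, with a ratio of 1.02 (1.01 to 1.02). Lgals3 had a UMI in 98.5% and 98.6% of the cells at full depth. Gpnmb was unevenly spread: 10% of the cells held 88.1% of its UMIs in wild type and 81.7% in the other, compared with 30.2% and 28.9% for Lgals3.

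**Figure D2:**
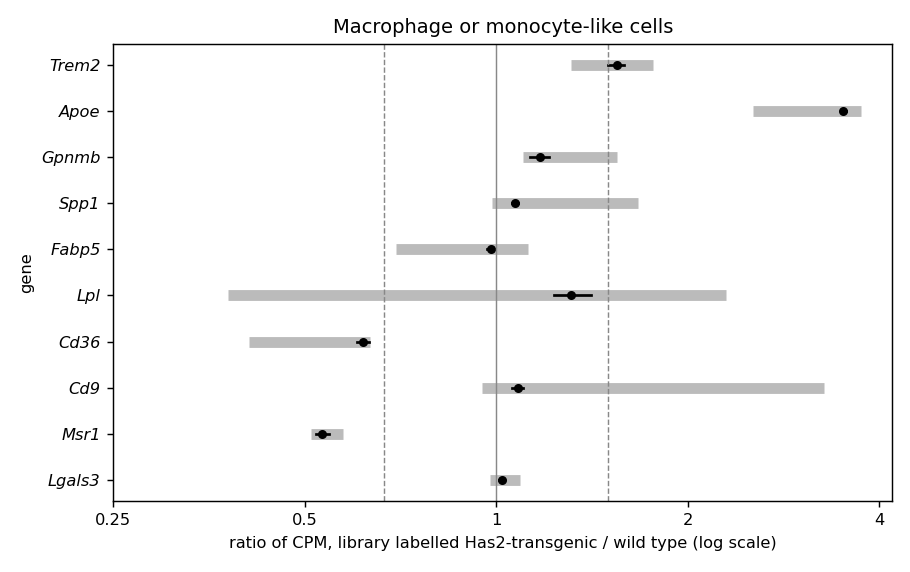
Ratio of CPM between the libraries in macrophage or monocyte-like cells (log axis) for each gene: points with black lines are the reported ratio and its 95% counting interval, grey bars the range over 18 other ways of processing, and dashed lines mark 1.5-fold in each direction. Apoe lies beyond 1.5-fold higher, and Cd36 and Msr1 beyond 1.5-fold lower, over the whole of their grey bars, whereas Lpl spans 0.378 to 2.30.

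Over these alternatives Apoe ranged from 2.53 to 3.74, Msr1 from 0.511 to 0.575 and Cd36 from 0.408 to 0.633, and Trem2 from 1.31 to 1.76, past 1.5-fold in 13 of 18. Leaving out cells with UMIs of neutrophil markers moved several genes. The highest of these markers was at 1984 and 1715 CPM in macrophage or monocyte-like cells, so a removal on all of them also selects among these cells. Whether neutrophil RNA played a part in the moves was not tested. The strictest removal left out every cell with a UMI of any neutrophil marker other than Mmp9 after thinning to 2000 UMIs, which kept 372 and 533 cells, and was chosen after the data were seen. In those cells 5 of the 10 genes passed 1.5-fold higher: Apoe, Gpnmb (1.55), Spp1 (1.67), Lpl (2.30) and Cd9 (3.27), beside 16.0% of all genes in the same cells, while Trem2 was at 1.31. The number lower was 2, beside 10.9%. A narrower removal, added after that result was known, left out cells with a UMI of S100a8, S100a9, Retnlg, Cxcr2, Ly6g or Mmp8, kept 3304 and 3432 cells, and gave 2 genes higher, beside 12.5% of all genes, and 2 lower, beside 3.78%.

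The macrophage or monocyte-like cells of the libraries differed in their makeup by genes that were not among the 10. Resident-like cells (at least 2 of Folr2, Mrc1, Cd163, Lyve1, F13a1 and Cbr2, after thinning each cell to 2000 UMIs) made up 46.9% and 42.1% of the cells. Cells with at least 2 UMIs of Arg1, an enzyme of wound macrophages, made up 54.2% and 31.8%, and cells with at least 2 monocyte markers 61.0% and 39.2%. Cells with at least 3 of 4 MHC class II genes made up 13% and 21%, and osteoclast-like cells (at least 2 of Ctsk, Acp5, Mmp9, Ocstamp, Dcstamp, Atp6v0d2 and Calcr) 1.25% and 5.88%, or 60 and 247 cells. The subsets overlap. The part of this makeup in the ratios over the whole class was not tested. A subset of dividing cells held 11 and 31 cells and is not described further.

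Apoe was highest in resident-like cells without an Arg1 UMI, at 3125 CPM in wild type and 11871 CPM in the other, and lower in Arg1 cells without a resident-like marker, at 712 and 1448 CPM. Within these subsets its ratio between libraries was 3.80 and 2.03. In osteoclast-like cells it was at 1981 and 2019 CPM, with a ratio of 1.02 (0.960 to 1.08). The Apoe difference between libraries was thus present in resident-like, Arg1 and MHC class II cells (3.83 in the last) and not seen in osteoclast-like cells.

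Trem2 was at 199 and 323 CPM in resident-like cells without Arg1, a ratio of 1.62, and at 97.8 and 164 CPM in Arg1 cells without a resident-like marker, a ratio of 1.68. Trem2 in MHC class II cells was at 97.6 and 195 CPM, a ratio of 2.0, and in osteoclast-like cells at 179 and 200.4 CPM, with a ratio of 1.12 (0.919 to 1.38). Msr1 was lower in the library labelled Has2-transgenic in each of these 4 subsets, with ratios of 0.678, 0.545, 0.524 and 0.280. Cd36 was not: in resident-like cells without Arg1 it was at 178 and 195 CPM, a ratio of 1.09, against 850.5 and 598 CPM in Arg1 cells without a resident-like marker, a ratio of 0.703, and in MHC class II and osteoclast-like cells its ratios were 0.603 and 0.317.

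Lpl differed between the libraries in opposite directions in different subsets. In osteoclast-like cells it was at 16.1 CPM (7.71 to 29.6) from 10 UMIs in wild type and 248 CPM (233 to 265) from 947 UMIs in the second library, giving a ratio of 15.4 (8.36 to 32.3). In the library labelled Has2-transgenic these 247 cells held 55.4% of the Lpl UMIs of the subsetted cells, 112 of them had an Lpl UMI, and the highest cell had 78. Resident-like cells showed the opposite, 54.0 and 25.1 CPM, with a ratio of 0.464 (0.414 to 0.519), and held 74.0% of the Lpl UMIs in wild type and 24.6% in the other. In resident-like cells without Arg1 the Lpl ratio was 0.548 (0.474 to 0.632). Arg1 cells without a resident-like marker were at 25.3 and 65.7 CPM, from 101 and 205 UMIs. Their ratio was 2.60 (2.04 to 3.34), against 0.956 over all Arg1 cells. In MHC class II cells it was 0.985 (0.814 to 1.19). Without cells that hold a UMI of Ctsk, Acp5 or Mmp9, Lpl was at 32.0 and 12.1 CPM.

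The remaining genes differed less between the libraries over the whole class, and several of them differed more within a subset. Gpnmb had a ratio of 2.25 (2.04 to 2.48) in MHC class II cells and 1.60 in resident-like cells without Arg1, against 1.31 in Arg1 cells without a resident-like marker and 0.782 in osteoclast-like cells. The Fabp5 ratio was 1.56 (1.49 to 1.63) in MHC class II cells and 0.645 (0.600 to 0.694) in osteoclast-like cells, with 0.880 and 1.17 in the resident-like and Arg1 cells. Spp1 and Cd9 were higher by 1.46 and 1.39 times in the Arg1 cells, and had ratios of 1.29 and 0.793 in MHC class II cells. Lgals3 lay at 1.09 to 1.1 in those 3 subsets and at 0.577 (0.560 to 0.596) in osteoclast-like cells. In cells with at least 2 monocyte markers, the ratio was 2.27 for Apoe, 1.15 for Trem2 and 1.45 for Spp1. Lpl was lower there, at 0.471 (0.392 to 0.563), as was Msr1, at 0.664, while Cd36 was at 0.760.

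**Figure D3:**
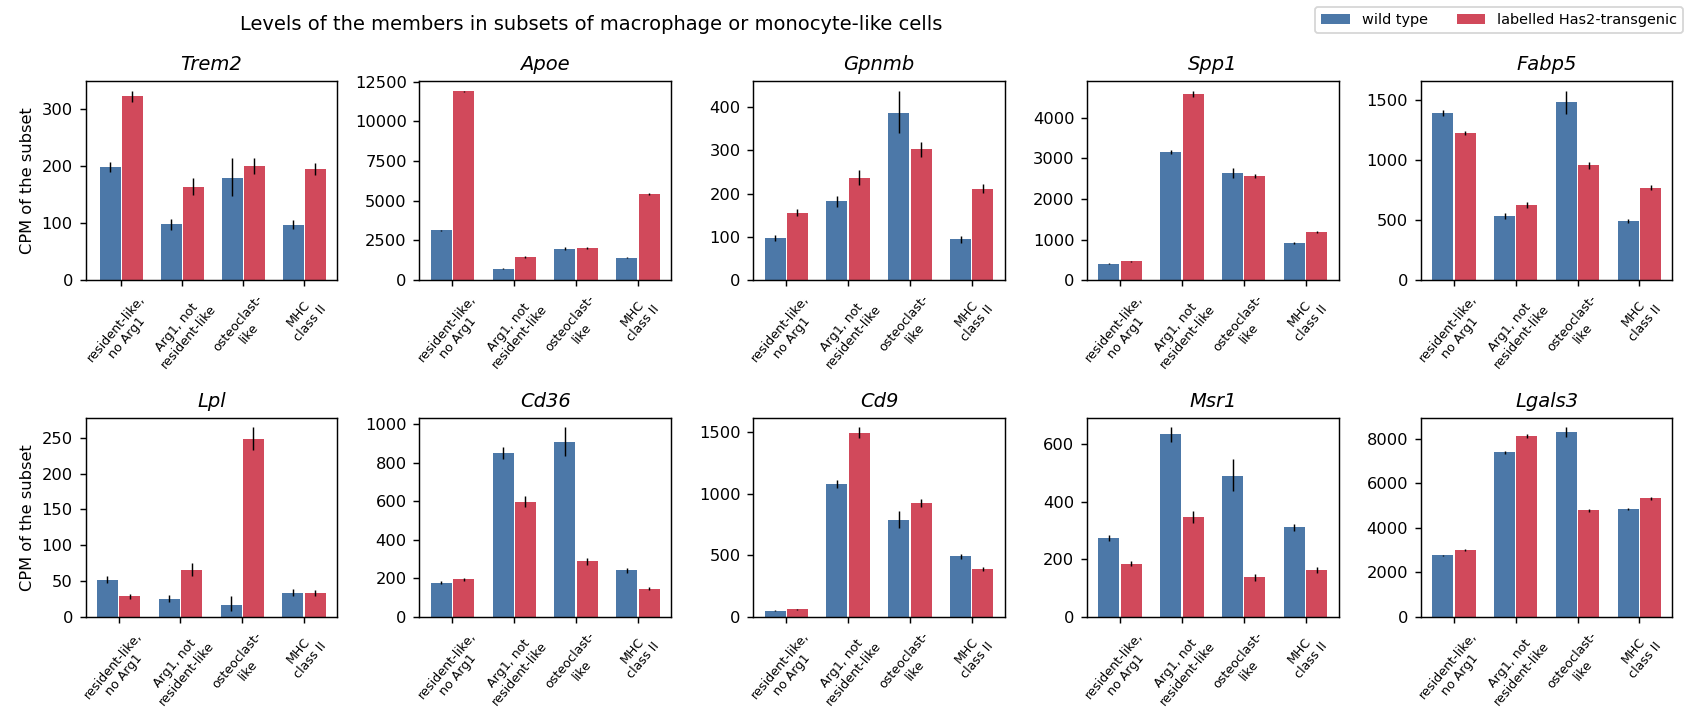
Level of each gene in CPM in 4 subsets of macrophage or monocyte-like cells for the wild-type library (blue) and the library labelled Has2-transgenic (red); bars are levels from summed UMIs, lines 95% Poisson intervals, and each panel has its own axis from 0. Apoe, Trem2 and Fabp5 are higher in resident-like cells without Arg1 than in Arg1 cells without a resident-like marker, Cd9, Spp1, Lgals3, Cd36 and Msr1 lower, and the Lpl bar of osteoclast-like cells stands at 248 CPM in 1 library only.

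Within each library the genes split by subset in the same way, and these comparisons are between cells of 1 library. Levels in resident-like cells without Arg1, as a ratio to Arg1 cells without a resident-like marker, were 4.39 in wild type and 8.20 in the other for Apoe, 2.03 and 1.97 for Trem2, and 2.61 and 1.96 for Fabp5. The ratio was 0.0441 and 0.0408 for Cd9, 0.126 and 0.102 for Spp1, 0.373 and 0.369 for Lgals3, 0.209 and 0.326 for Cd36, and 0.430 and 0.534 for Msr1. Gpnmb was at 0.537 and 0.660. Lpl was the exception, with 2.06 in wild type and 0.433 in the other.

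Co-detection was counted in 4812 and 4198 macrophage or monocyte-like cells thinned to 2000 UMIs, which left out 400 and 327 shallower cells. The median cell held 4 of the 10 genes in both libraries. At least 7 were found in 8.02% and 6.48% of the cells, where the product of the single shares gives 5.77% and 4.99%. Cells with all 10 numbered 2 in wild type and 0 in the other, where a count of 0 allows up to 3 cells. The cells that hold Trem2, Gpnmb and Spp1 together made up 2.08% (1.69 to 2.52) and 3.55% (3.01 to 4.15). The product of the single shares gives 1.51% and 2.57%, a ratio of 1.38 in both libraries.

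**Figure D4:**
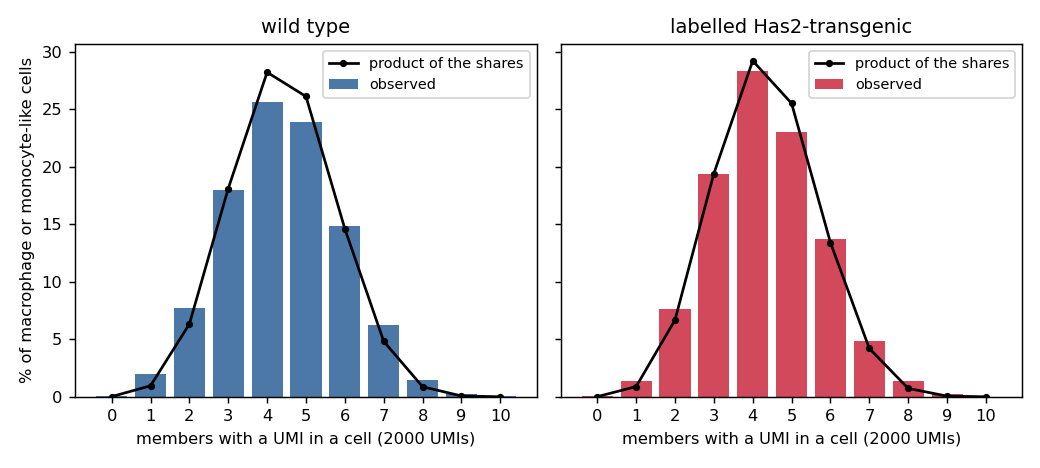
Share of macrophage or monocyte-like cells (thinned to 2000 UMIs) by the number of the 10 genes with a UMI, observed (bars) and from the product of the single shares (black line), for each library. The observed distributions peak at 4 genes and lie close to the line, with 8.02% and 6.48% of cells at 7 or more.

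The pairs fell into groups that were alike in both libraries. Pearson correlations below are of log1p UMIs across the thinned cells of 1 library, and all points share that library. Spp1, Cd9 and Lgals3 went together, with r of 0.39 and 0.42 for Spp1 and Cd9, 0.39 and 0.45 for Cd9 and Lgals3, and 0.36 and 0.35 for Spp1 and Lgals3. Apoe went with Trem2 (0.18 and 0.27) and Fabp5 (0.27 and 0.26), and against Cd9 (-0.37 and -0.48). Cells with both Apoe and Cd9 numbered 1025 and 1090, where the product of the shares gives 1340.2 and 1353. Of the 45 pairs, 14 had r above 0.1 in both libraries and 7 had r below -0.1 in both. Across all pairs the median ratio of observed to expected cells was 1.02 and 1.01.

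**Figure D5:**
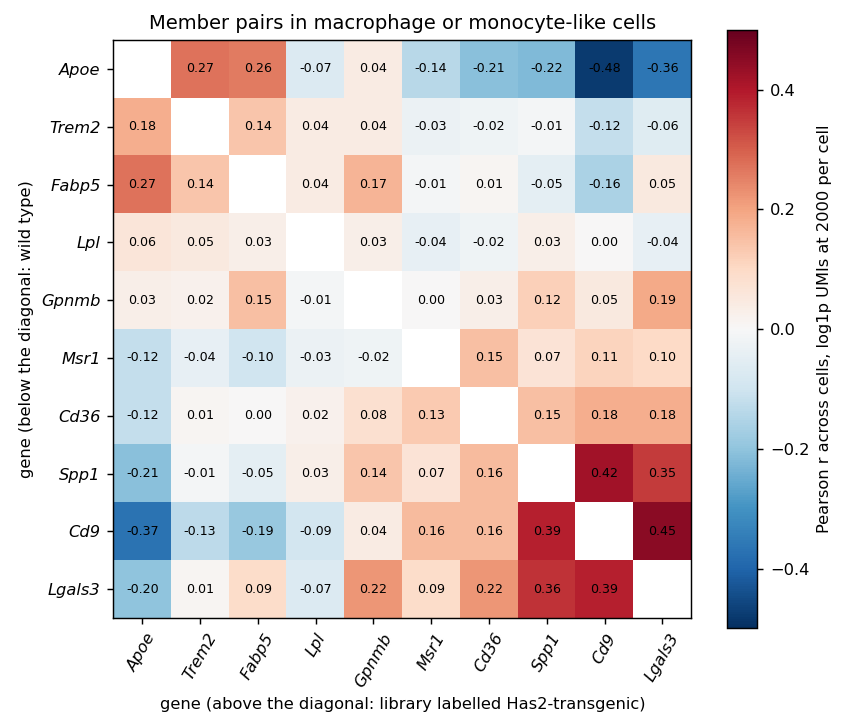
Pearson r of each pair across macrophage or monocyte-like cells thinned to 2000 UMIs, below the diagonal for the wild-type library and above it for the library labelled Has2-transgenic (red positive, blue negative). Spp1, Cd9 and Lgals3 form a red block at the lower right, and Apoe against Cd9 is the most negative pair, at -0.37 and -0.48.

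Since neutrophils hold much Spp1 and Cd9, the pairs were also taken in cells without UMIs of neutrophil markers. Not all 12 markers were low in macrophage or monocyte-like cells: the highest was at 1984 and 1715 CPM there. A UMI of some marker was in 92.6% and 89.0% of the thinned cells, so the cells without one are a selected part of the class. In the 358 and 462 cells with no UMI of any neutrophil marker, r for Spp1 and Cd9 was 0.19 and 0.37, and for Apoe and Cd9 -0.21 and -0.52. In the 3304 and 3432 cells with no UMI of the 6 narrower genes it was 0.37 and 0.40, and -0.37 and -0.46. S100a8 was at 0.506% and 0.350% of its neutrophil-like level in macrophage or monocyte-like cells, a share that would give 41.3 and 33.5 CPM of Spp1. The part of neutrophil RNA in the pairs was not tested.

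The genes most like each of the 10 across these cells, of 4304 genes in at least 5% of them, followed the same division. For Apoe they were C1qb (0.45 and 0.66), Selenop, Itm2b, C1qa and C1qc, of which the C1q genes are complement genes and also gate markers. For Trem2 they were Apoe, Ctsb, C1qb, C1qa and Itm2b, and for Fabp5 the lysosomal Ctsb (0.45 and 0.35), Pf4, Cd63, Lgmn and Ctsl. For Spp1 they were Cd9, Lgals3, the chemokine gene Cxcl3 (0.29 and 0.31), Inhba and S100a6, and for Cd9 Cxcl3 (0.43 and 0.42), Lgals3, S100a11, Spp1 and Inhba. Cd36 and Msr1 both had Arg1 and Cxcl3 in their 5, with r for Cd36 and Arg1 of 0.31 and 0.34. For Lgals3 they were Vim, Cstb, S100a6, S100a10 and Cd9, and for Gpnmb Lgals3, Cstb, Fabp5, Psap and Lhfpl2, at r of at most 0.22. Lpl had Acp5 first, at -0.01 in wild type and 0.23 in the other.

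Outside macrophages, Spp1 was highest in neutrophil-like cells, at 8151 CPM (8112 to 8189) in wild type and 9585 CPM (9530.4 to 9640.0) in the other, with a UMI in 77.7% and 56.3% of 6574 and 5493 cells at full depth. Thinned to 1000 UMIs, the shares were 69.3% and 51.5%, so a smaller share of cells held a slightly higher level. Cd9 had a UMI in 96.4% and 96.6% of these cells at full depth, at 2598 and 3069 CPM, and in 88.5% and 92.0% after thinning to 1000 UMIs. For comparison, T cell-like cells had a UMI of Spp1 in 1.59% and 2.13% and of Cd9 in 3.98% and 1.42% of cells thinned to 1000 UMIs. The part of free RNA in these T cell shares was not tested.

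In neutrophil-like cells 3 of the 10 genes were at least 1.5 times higher in the library labelled Has2-transgenic (Trem2, Apoe and Lpl), beside 14.1% of 7545 genes, and 1 was lower (Msr1), beside 8.73%. Their levels were low: Trem2 was at 2.39 and 5.70 CPM, Apoe at 21.8 and 53.0 CPM, and Msr1 at 16.6 and 5.53 CPM, between 0.846% and 3.38% of their macrophage levels. Lpl was at 1.82 and 14.5 CPM from 39 and 178 UMIs, of which a single cell held 35.9% and 33.1%. Genes that define macrophages were at 2.96% and 2.18% of their macrophage level in the same cells. The part of macrophage RNA in these values was not tested.

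In fibroblast-like cells 3 of the 10 were at least 1.5 times higher in the library labelled Has2-transgenic (Trem2, Apoe and Spp1), beside 12.8% of 13008 genes, and 2 were lower (Cd36 and Msr1), beside 7.30%. Spp1 was at 244 CPM (239.8 to 249) and 1325 CPM (1316 to 1334), a ratio of 5.43 (5.32 to 5.53), with a UMI in 15.8% and 29.6% of 2367 and 2343 cells at full depth and in 6.62% and 16.3% of those thinned to 1000 UMIs. Few cells carried it: those with at least 50 Spp1 UMIs were 59 and 217 cells and held 79.5% and 93.3% of its UMIs. The share of S100a8 in these cells would give 43.9 and 31.5 CPM of Spp1 from neutrophils, and that of Cxcr2 46.2 and 47.2 CPM. The part of neutrophil RNA in these Spp1 levels was not tested. Spp1 in fibroblasts with a UMI of Postn or Lrrc15, wound fibroblast genes, was at 661 and 1779 CPM after thinning, and in the others at 169 and 422 CPM. Such fibroblasts numbered 193 of 1773 and 1169 of 2173 thinned cells.

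Lpl had 68.6% and 62.4% of its UMIs in fibroblast-like cells, at 86.6 and 65.6 CPM, a ratio of 0.757. Apoe in these cells was at 50.7 and 159 CPM, with a ratio of 3.13 (3.0 to 3.28), and Trem2 at 1.1 and 1.76 CPM. Trem2 in fibroblast-like cells stood at 0.707% and 0.735% of its macrophage level, beside 0.809% and 0.645% for the genes that define macrophages. Apoe stood at 2.84% and 2.54%. Cd36 was at 8.27 and 5.06 CPM there, 1.54% and 1.52% of its macrophage level. Msr1 was at 5.31 and 3.23 CPM, or 1.08% and 1.23%. The part of macrophage RNA in these fibroblast values was not tested.

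In endothelial-like cells Cd36, a fatty acid receptor of capillaries, was at 367 and 549 CPM in 225 and 219 cells, with a ratio of 1.5 (1.40 to 1.59) that falls just short of 1.5 before rounding. A Cd36 UMI was found in 83.1% and 78.5% of these cells at full depth and in 33.8% and 37.0% of those thinned to 1000 UMIs, so no order is read from the shares. Spp1 there had a ratio of 1.5, but a single cell of the second library held 71.4% of its UMIs there, and without the top cell of each library the ratio was 0.602. T cell-like cells had 0 Trem2 UMIs in 252 and 144 cells, which allows a UMI in up to 1.19% and 2.08% of them, and 0 and 1 Msr1 UMIs.

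Classes with under 100 cells in a library are given as levels only. Fabp5 was at 473 CPM in 21 keratinocyte-like cells of the wild-type library and 12361 CPM in 183 of the other, where they held 55.0% of all its UMIs and 1 cell held 10.7% of those. In dendritic cell-like cells Fabp5 was at 2919 and 1089 CPM. Apoe was at 920.1 and 2035 CPM in keratinocyte-like, 886 and 875 CPM in Schwann-like, and 612 and 2331 CPM in mast cell or basophil-like cells. Cd9 was at 3009 and 2002 CPM in Schwann-like cells.

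The wider lipid programme of macrophage or monocyte-like cells was read from 9 gene lists that contain none of the 10. In the TREM2 signalling list 0 of 9 measured genes were past 1.5-fold; Tyrobp, the adaptor of TREM2, was at 2314 and 2054 CPM, a ratio of 0.888. Among scavenger and lipoprotein receptors 3 of 12 were higher and 1 lower, led by Marco, at 0.246 CPM from 11 UMIs and 11.6 CPM from 427, Colec12 (2.75) and Axl (2.54). Among genes of sterol efflux and apolipoproteins 3 of 10 were higher and 2 lower: the phospholipid transfer protein gene Pltp was at 191 and 747 CPM, with a ratio of 3.92 (3.83 to 4.02), Apoc4 at 7.02 from 17 and 98 UMIs, and Apoc1 at 0.449.

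Of lysosomal hydrolysis genes 2 of 10 were higher and 0 lower, with Lipa, the lysosomal acid lipase, at 123 and 215 CPM, a ratio of 1.75, and Smpd1 at 1.51. Of storage genes 2 of 11 were higher and 0 lower (Acsl3 at 2.19 and Fabp4 at 1.52, with Dgat2 at 0.670 just inside), and of regulators 1 of 12, Mylip at 1.81. Other genes of lipid-associated and disease-associated macrophages had 4 of 16 higher and 0 lower, including Timp2 (2.48), Igf1 (2.41) and Cd63 (1.82). Cholesterol synthesis had 2 of 9 higher (Dhcr7 at 1.71 and Idi1 at 1.54) and fatty acid oxidation 0 of 10 in either direction. The background for all of these is the same 12.7% higher and 3.89% lower.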

How the data were processed

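The 2 single-cell libraries were analysed from deposited raw UMI counts; the authors used Cell Ranger 9.0.1 and build GRCm39, per the file headers and processing notes. Barcodes under 200 genes or over 15% mitochondrial UMIs were left out. Scrublet (in scanpy 1.11.5) called 1.46% and 0% of barcodes, so the top-scoring 1156 and 855 barcodes, the number expected from loading, were removed.

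Cells were assigned to the class with the highest scaled marker score among classes with at least 3 markers detected. The scoring rule was set after the data had been seen. By Leiden clusters (27), made without the 10 genes, 98.5% of the macrophage or monocyte-like cells had the same class. Cells scored as plasmacytoid dendritic (135 and 109) lay in other classes' clusters and are not described. UMIs were summed per library and class as CPM, with exact Poisson intervals, and ratios have exact conditional (Clopper-Pearson) and shares exact binomial intervals. The Poisson and ratio intervals were run on simulated Poisson counts, the model they assume. That run cannot show how they cover UMIs that are unevenly spread over cells. Subsets and co-detection use cells thinned to 2000 UMIs; levels within subsets, and shares of cells with a UMI, use full depth unless thinning is stated. With 1 library per genotype no test was made. A gene is called past 1.5-fold among genes with at least 100 UMIs. The members and lists were chosen with earlier results of these data known. Named genes are the 10, Has2, up to 3 genes of each list with the largest ratios, the 5 genes most like each member and genes that define a class. Tyrobp was named after its values were seen, and 1 gene that the rule names is not reported here.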

Additional observations from a re-analysis of the deposited data

Results flagged for a closer look

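The ratio of Lpl passed 1.5-fold in opposite directions in different cell classes, and the difference between classes was not tested. Lpl had a ratio of 7.94 in neutrophil-like cells, from 39 and 178 UMIs, of which 1 cell held 35.9% and 33.1%, and a ratio of 0.554 in endothelial-like cells, from 176 and 80 UMIs.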

How the results depend on the processing

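No paired analysis was possible because each genotype has 1 library. In macrophage or monocyte-like cells 18 alternatives were run, 16 of them planned and 2 added after the data were seen; 1 of those 2 was added after the result of the other was known. The number of genes at least 1.5 times higher was 1 in place of 2 without cells with 3 or more neutrophil markers (beside 9.54% of all genes), by the mean of per-cell CPM (8.69%), in cells thinned to 2000 UMIs (5.45%) and with ratios centred on the median gene (11%), and 1 at a threshold of 2-fold (4.50%). It was 3 without cells with 2 or more monocyte markers (8.99%), where Lpl reached 1.77, and 5 without cells with any neutrophil marker UMI other than Mmp9 (16.0%). The number lower was 0 in place of 2 at a threshold of 2-fold (1.08%), and 3, with Lpl, without cells with a UMI of Ctsk, Acp5 or Mmp9 (3.63%). Thinning to 2000 UMIs also left fewer cells, 4812 and 4198, and fewer genes with at least 100 UMIs, 8273 in place of 11254. The Spp1 ratio in endothelial-like cells reversed to 0.602 without the top cell. The causes were not tested.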
